A study of Mus musculus with 16 samples.

Results

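The 54 odorant receptor genes between Olfr763 and Olfr827 form a cluster on mouse chromosome 10. They were taken as every probe set whose annotated symbol is Olfr with a number in this range and no pseudogene suffix, which gave 54 of 22206 tested probe sets and 54 of the 1080 odorant receptors on the array. All 54 were matched by gene ID to the RefSeq gene table, where all of them lie on chromosome 10 and are listed as protein coding. Of the 65 numbers in the range, 11 had no such probe set. Every one of the 54 exceeded the median of the negative control entries, which was 6.17 on the log2 scale, in the mean of at least 1 group. The gene table places 53 of them in 13 subfamilies, 8 of which hold at least 2 of the genes, and gives none for Olfr765.

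The arrays came from a search for the receptors of an odorous thiol in S100a5-tauGFP mice. Their background strain is not given in the sources at hand. The reporter follows S100a5, a calcium-binding protein gene that olfactory sensory neurons transcribe when active, so that neurons which had recently fired could be sorted by their green fluorescence. The 24 mice were of both sexes, 7 to 12 weeks old, and spent 40 h in chambers flushed at 3.1 L/min. From 26 h onwards they received pulses of 10 s every 20 min. All 4 groups carried the reporter. The vehicle GFP- and vehicle GFP+ groups are the sorted cells of mice that received filtered air, and the odor GFP- and odor GFP+ groups are those of mice that received 1-pentanethiol, the odor named in the title and the sample labels; the design text names bourgeonal instead. Each group holds 4 arrays, each from a pool of 3 mice, and the GFP- and GFP+ arrays of a pool come from the same animals. Pooling hides the variation between mice within a pool.

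Each olfactory sensory neuron transcribes mainly a single receptor gene, chosen from a very large repertoire spread over clusters on many chromosomes. The chosen receptor sets which odorants excite the neuron, and genes of a subfamily are close in sequence. In RNA from sorted cells, a receptor probe set therefore reports on the neurons that chose that gene: a signal higher in GFP+ than in GFP- RNA means that transcripts of the gene were more abundant in the sorted active fraction. In such bulk RNA, fewer neurons with a receptor and less receptor RNA per neuron cannot be told apart.

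For 43 of the 54 genes a sequence around the annotated start was at hand from RefSeq (build GRCm38.p6). The gene models of 42 of these begin with an ATG, so they describe coding starts and not the start of transcription. The first 50 bases are shown for genes on which the results turn and for Olfr792 and Olfr798. They are written 5′ to 3′ on the strand of the gene, with the start codon in capitals. Olfr763 (chr10:129011287-129011336, plus strand), Olfr788 (chr10:129472694-129472743, plus strand) and Olfr811 (chr10:129802474-129802523, minus strand) were higher in GFP+ cells of the vehicle pools. Olfr769 (chr10:129112374-129112423, minus strand), Olfr780 (chr10:129321625-129321674, plus strand), Olfr812 (chr10:129842991-129843040, minus strand), Olfr825 (chr10:130163275-130163324, minus strand) and Olfr826 (chr10:130180829-130180878, minus strand) were lower. Olfr792 (chr10:129540539-129540588, plus strand) and Olfr798 (chr10:129626010-129626059, minus strand) are a close pair whose differences had opposite signs. Neither passed the test given below in either sort, and Olfr792 read near the negative controls in both GFP+ groups.
Olfr763: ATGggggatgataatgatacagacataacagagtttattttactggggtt
Olfr788: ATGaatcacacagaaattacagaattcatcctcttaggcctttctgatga
Olfr811: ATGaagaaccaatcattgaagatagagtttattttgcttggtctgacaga
Olfr812: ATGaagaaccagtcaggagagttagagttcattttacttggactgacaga
Olfr769: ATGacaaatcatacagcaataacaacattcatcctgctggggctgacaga
Olfr780: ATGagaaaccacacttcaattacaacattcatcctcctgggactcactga
Olfr792: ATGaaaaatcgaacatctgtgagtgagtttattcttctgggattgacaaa
Olfr798: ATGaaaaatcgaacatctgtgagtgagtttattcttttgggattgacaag
Olfr825: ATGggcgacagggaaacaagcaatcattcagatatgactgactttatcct
Olfr826: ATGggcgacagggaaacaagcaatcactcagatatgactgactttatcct

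Positions in these stretches are counted from 1 at the A of the start codon. Olfr825 and Olfr826 differ at 1 of the 50 positions, T27C (Olfr825 first), and Olfr792 and Olfr798 at 2, C37T and A50G (Olfr792 first). Olfr811 and Olfr812, of the same subfamily, share 41 of 50 bases, and Olfr769 and Olfr780 share 40. Over all pairs of the 42 genes whose model begins with an ATG, without alignment gaps, the median was 38 identical bases for the 96 pairs of a subfamily. It was 24 for the 765 other pairs, in which Olfr765, without a given subfamily, is counted. The closest of these other pairs share 49 bases, Olfr765 and Olfr767 among them. Where genes are this close, signal of one may reach the probe set of the other, and how the probe sets divide it was not tested.

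Values below are the deposited log2 signals, in which a difference of 1 is a factor of 2. Differences carry the standard error (SE) of a limma fit to all 16 arrays, with n = 4 arrays per group, and a difference passed the test where its p, adjusted by Benjamini and Hochberg's method over the 22206 probe sets of the comparison, was under 0.05. The sort could be read from its targeted reporter gene: the GFP+ arrays exceeded the GFP- arrays in S100a5 by 0.87 ± 0.12 (vehicle) and 0.99 ± 0.12 (odor), both past the test, while Omp, the marker of mature olfactory neurons, differed by 0.05 ± 0.10 and 0.03 ± 0.10 without passing. The GFP+ array of vehicle replicate 2 stood apart in its negative control median, 7.28 against 6.22 to 6.38 on the other 3 arrays of its group, and the counts and calls that changed without it are given beside the results. Signal levels were not compared between probe sets.

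Without the odor, more of the cluster was lower than higher in GFP+ cells. Of the 54 receptors, 17 (31.5%) were lower and 4 (7.41%) were higher in GFP+ than in GFP- cells of the vehicle pools, against 11.8% lower and 9.34% higher of all tested probe sets. Among the 1026 other odorant receptors the order was the opposite, with 247 (24.1%) lower and 395 (38.5%) higher. The median difference of the cluster was -0.21, against 0.31 for the other receptors and 0.11 for all tested probe sets, and 34 of its 54 genes lay below 0. The arrays of the 2 groups did not overlap for 20 of the 54 (37%, against 23.7% of all probe sets); Olfr792 was among these without passing the test. Without the GFP+ array of replicate 2, 16 of the 54 were lower and 6 higher, with a median of -0.12. Of all tested probe sets 11.5% were then lower and 10.3% higher, so the share of higher receptors was no longer below that of all probe sets. In that fit Olfr804 and Olfr805 no longer passed as lower and Olfr768 did (-1.15, adjusted p = 0.0314), while Olfr767 (0.44, adjusted p = 0.0427) and Olfr821 (0.90, adjusted p = 0.00947) passed as higher.

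The split between higher and lower depends on how the arrays are scaled. With the medians of all probe sets set equal on every array, which raised the median difference of all probe sets from 0.11 to 0.46, the vehicle pools gave 15 higher and 14 lower of the 54, against 58.6% higher and 9.04% lower of all tested probe sets, and the median of the cluster became 0.14. With the medians of the negative controls set equal, which lowered it to -0.38, they gave 0 higher and 21 lower, against 1.26% higher and 18.9% lower of all tested probe sets. No receptor of the cluster that had passed changed its sign under any scaling tried.

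Olfr794, a receptor of subfamily MOR114, had the largest measured difference of the cluster in the vehicle pools. Its signal was 12.71, 12.67, 12.25 and 13.38 on the vehicle GFP- arrays of replicates 1 to 4 and 9.31, 7.67, 9.38 and 5.74 on the GFP+ arrays. All GFP+ values lay below all GFP- values, but they spread widely, and in replicate 4 the GFP+ signal fell below the negative control median of that array. The difference was -4.73 ± 0.55 (26.5-fold lower, adjusted p = 4.53e-06), and the difference within each pool ran from -7.64 in replicate 4 to -2.87 in replicate 3. The vehicle GFP+ mean was 8.03 with an SD of 1.72 over the 4 arrays, against 6.55 for the negative controls. The mean lay above the controls, but the mean less this SD did not. This fold is thus limited by nonspecific signal, in replicate 4 above all. In the odor pools the signal was 12.67, 12.82, 12.62 and 12.87 in GFP- and 8.06, 7.73, 8.57 and 8.20 in GFP+ cells. These GFP+ arrays lay closer together, and the difference was -4.60 ± 0.55 (24.3-fold lower, adjusted p = 6.15e-06).

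The far end of the cluster, Olfr825 to Olfr827, held 3 neighbouring genes of subfamily MOR210 that were all lower in GFP+ cells. Olfr826 read 12.75, 13.07, 12.36 and 13.48 on the vehicle GFP- arrays and 9.52, 8.15, 9.18 and 7.54 on the vehicle GFP+ arrays. On the odor arrays it read 12.93, 13.08, 12.62 and 13.24 in GFP- and 8.96, 7.95, 7.85 and 8.49 in GFP+ cells. The fractions were apart in both kinds of pool, by -4.32 ± 0.37 (19.9-fold lower, adjusted p = 1.11e-07) and -4.65 ± 0.37 (25.2-fold lower, adjusted p = 4.51e-08). Olfr827 read 10.35, 10.73, 9.45 and 10.96 in vehicle GFP- and 6.43, 7.24, 6.45 and 6.87 in vehicle GFP+ cells. The odor values were 10.65, 10.81, 10.41 and 9.88 in GFP- and 6.49, 6.90, 6.69 and 6.71 in GFP+ cells. Again no array of one fraction reached the other, and the differences were -3.63 ± 0.28 (adjusted p = 3.54e-08) and -3.74 ± 0.28 (adjusted p = 2.55e-08). In the vehicle GFP+ group its mean of 6.75 was within its own SD (0.38) of the negative controls (6.55), with the same limit on the fold. Its odor GFP+ mean of 6.70 (SD 0.17) was also near the controls (6.36), so the odor difference has this limit too.

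Olfr825, which has all but 1 of the first 50 bases of Olfr826, read 11.15, 11.28, 10.75 and 11.71 in vehicle GFP- and 8.45, 8.54, 8.33 and 8.69 in vehicle GFP+ cells. Its odor values were 11.27, 11.31, 10.93 and 11.42 in GFP- and 7.78, 7.39, 8.27 and 8.84 in GFP+ cells. It too was separated on all arrays, by -2.72 ± 0.25 (6.59-fold lower) in the vehicle and -3.16 ± 0.25 (8.93-fold lower) in the odor pools. The other 2 genes of the subfamily, which lie next to these, did not pass in the vehicle pools. Olfr824 differed by 0.33 ± 0.25 (adjusted p = 0.384) and 0.31 ± 0.25 (adjusted p = 0.395), with overlapping arrays, and Olfr823 by 0.14 ± 0.17 (adjusted p = 0.597) in the vehicle pools.

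**Figure D1:**
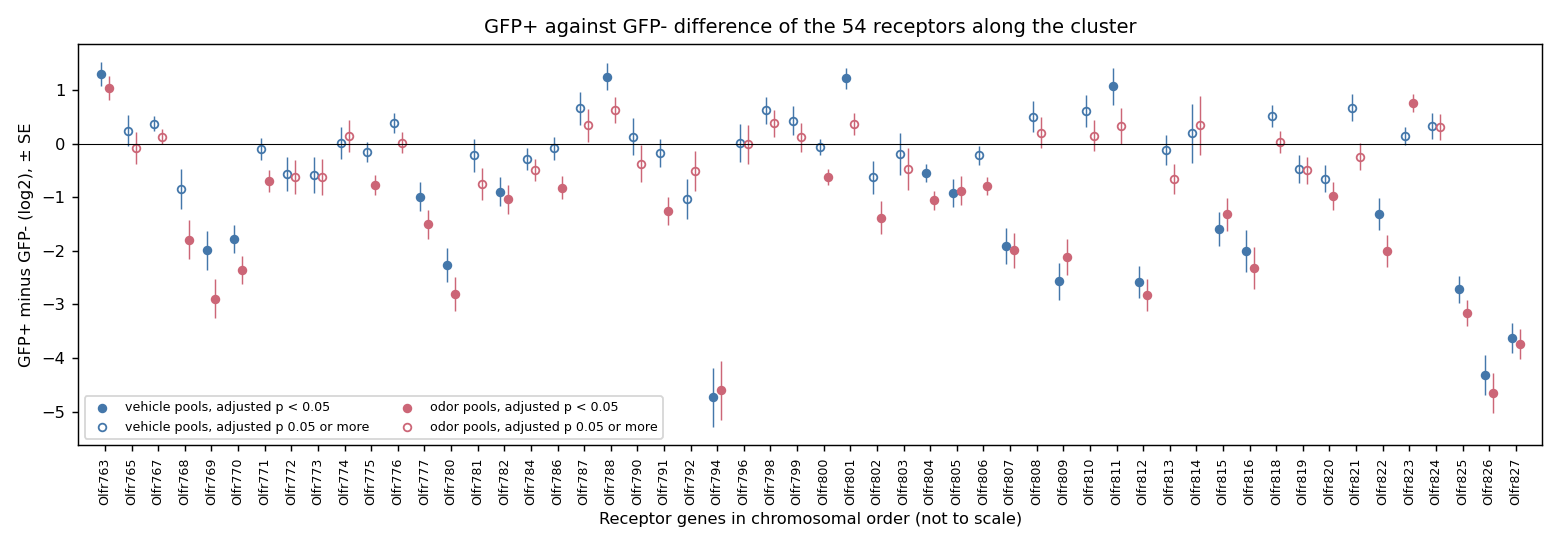
Difference of GFP+ from GFP- cells (log2, ± SE, n = 4 arrays per group) for the 54 receptors in the order of their genes on chromosome 10, in the vehicle pools (blue) and the odor pools (red); filled points passed the test. Points lie mostly at or below 0, Olfr794 stands alone at -4.73 and -4.60, and Olfr825 to Olfr827 close the cluster at -2.72 to -4.65.

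The 4 receptors that were higher in GFP+ cells of the vehicle pools lay apart from each other along the cluster. Olfr763, at its start, read 8.52, 8.42, 8.38 and 9.18 in vehicle GFP- and 10.28, 9.29, 10.01 and 10.13 in vehicle GFP+ cells. With the odor it read 9.25, 8.96, 9.41 and 9.22 in GFP- and 10.44, 9.87, 10.30 and 10.38 in GFP+ cells. The fractions did not overlap in either kind of pool, and it was the single gene of the cluster that passed as higher in both in this fit: by 1.30 ± 0.22 (2.47-fold, adjusted p = 2.08e-04) and by 1.04 ± 0.22 (2.05-fold, adjusted p = 0.00178).

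Olfr788, of subfamily MOR111, read 13.65, 13.48, 13.32 and 12.84 in vehicle GFP- and 14.90, 13.92, 15.03 and 14.42 in vehicle GFP+ cells. Its odor GFP- values were 13.96, 13.52, 13.27 and 13.28 and its odor GFP+ values 14.46, 13.70, 14.44 and 13.95. The fractions were apart in the vehicle pools, by 1.25 ± 0.25 (adjusted p = 0.00141), and overlapped in the odor pools, where 0.63 ± 0.25 did not pass (adjusted p = 0.0829) but did with array medians set equal and with the replicate number as a block. Olfr801, of subfamily MOR110, read 10.53, 10.82, 11.12 and 10.73 in vehicle GFP- and 12.02, 11.38, 12.13 and 12.53 in vehicle GFP+ cells. In the odor pools the values were 11.48, 10.96, 11.19 and 11.59 in GFP- and 11.66, 11.62, 11.59 and 11.83 in GFP+ cells. It was higher by 1.22 ± 0.20 (adjusted p = 0.000247) in the vehicle pools. With the odor the fractions met at 11.59 and the difference was 0.37 ± 0.20 (adjusted p = 0.206), which passed with array medians set equal.

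Olfr811, also of MOR110, was the weakest of the 4. It read 9.57, 10.11, 9.63 and 9.83 in vehicle GFP- and 10.84, 9.64, 11.48 and 11.46 in vehicle GFP+ cells. Replicate 2 fell within the GFP- range, so the groups overlapped, and the difference was 1.07 ± 0.34 (adjusted p = 0.0344). With the pool of mice as a block it no longer passed (adjusted p = 0.0698), and 3 of 4 pools had the direction. Nor did it pass with receptor medians or negative control medians set equal, or in a fit to these 2 groups only. Leaving out any single array of replicates 1, 3 or 4 of the vehicle pools also lost the call. Without the GFP+ array of replicate 2 the difference was 1.48 (adjusted p = 0.000808). Its neighbour in the cluster and subfamily, Olfr812, went the other way by -2.58 ± 0.30 (adjusted p = 4.15e-06), with 9.91, 9.87, 9.97 and 10.26 in vehicle GFP- and 7.45, 6.5, 8.19 and 7.55 in vehicle GFP+ cells.

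**Figure D2:**
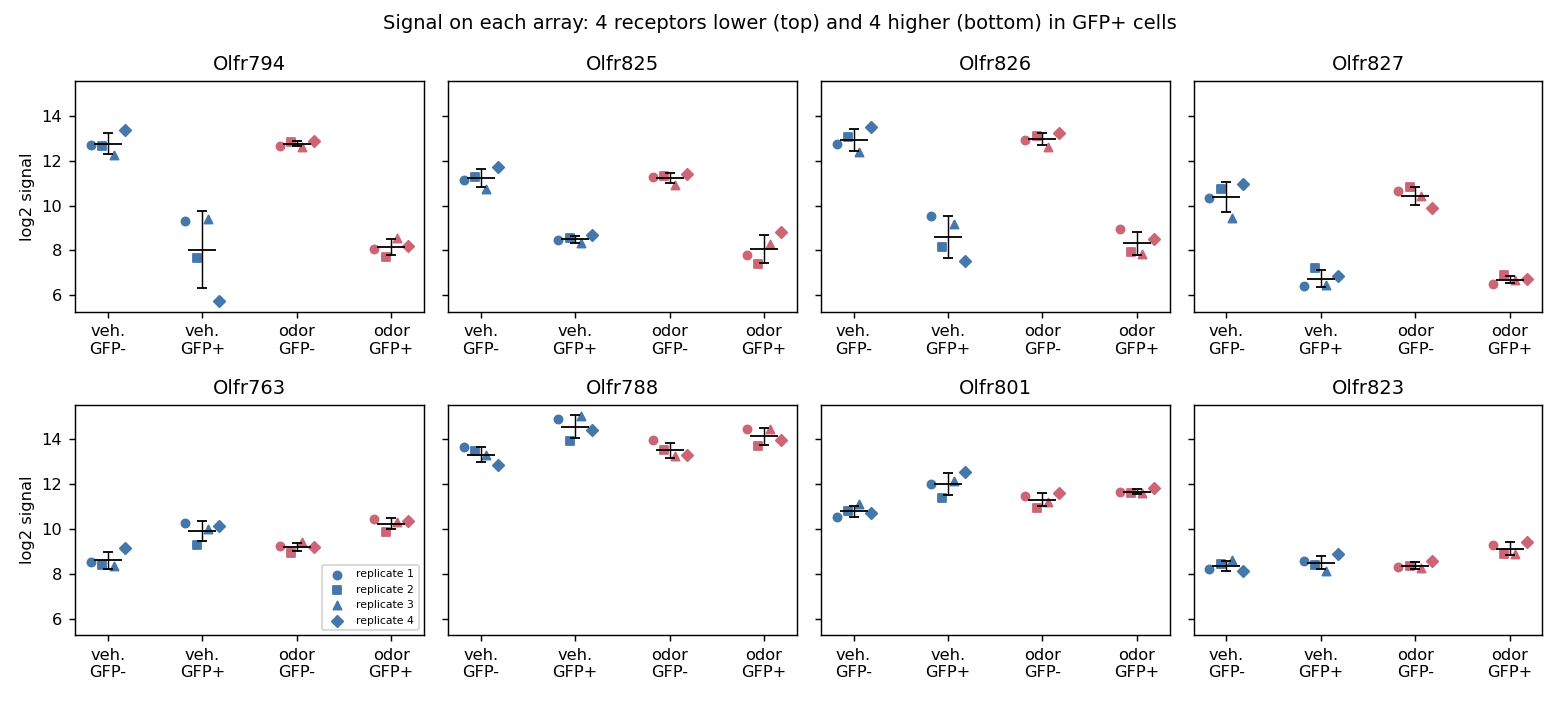
Log2 signal on each array for 4 receptors lower in GFP+ cells (top row) and 4 higher in at least 1 kind of pool (bottom row), in the 4 groups; symbols mark the replicate, the bar is the mean and the whiskers are the SD (n = 4). The fractions of Olfr794, Olfr825, Olfr826 and Olfr827 do not overlap in either kind of pool, and Olfr823 rises above its other groups in the odor GFP+ cells alone, from 8.90 to 9.45.

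With the odor, too, more receptors of the cluster passed as lower than as higher in GFP+ cells. In the odor pools 26 of 54 receptors (48.1%) were lower and 2 (3.7%) were higher, against 11.9% lower and 11.3% higher of all tested probe sets, and against 268 (26.1%) lower and 394 (38.4%) higher of the other odorant receptors. The median difference was -0.64, compared with 0.30 for the other receptors and 0.13 for all tested probe sets, with 38 of 54 genes below 0. The fractions did not overlap for 26 (48.1%, against 26.8% of all probe sets). These are not the same 26 genes as the lower ones, and 24 of them had passed in either direction. Setting array medians equal moved the median of all probe sets from 0.13 to 0.46 and gave a split of 7 higher and 22 lower with a cluster median of -0.31, against 59% higher and 9.05% lower of all tested probe sets.

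The same 17 receptors that were lower without the odor were lower with it: Olfr769, Olfr770, Olfr777, Olfr780, Olfr782, Olfr794, Olfr804, Olfr805, Olfr807, Olfr809, Olfr812, Olfr815, Olfr816, Olfr822, Olfr825, Olfr826 and Olfr827. After those described above, the lowest in the odor pools were Olfr769 (-2.89 ± 0.36), Olfr812 (-2.82 ± 0.30), Olfr780 (-2.80 ± 0.32), Olfr770 (-2.35 ± 0.26), Olfr816 (-2.32 ± 0.39) and Olfr809 (-2.11 ± 0.34). The vehicle differences were -1.99 ± 0.36 for Olfr769, -2.26 ± 0.32 for Olfr780, -1.78 ± 0.26 for Olfr770, -2.0 ± 0.39 for Olfr816 and -2.57 ± 0.34 for Olfr809, and Olfr807 differed by -1.91 ± 0.33 and -1.99 ± 0.33. No array of one fraction reached the other for these genes in either kind of pool. The smallest differences of the 17 were -0.55 ± 0.17 for Olfr804 in the vehicle pools and -0.88 ± 0.27 for Olfr805 in the odor pools. Without the GFP+ array of vehicle replicate 2, Olfr804 (-0.53, adjusted p = 0.0561) and Olfr805 (-0.79, adjusted p = 0.0594) did not pass in the vehicle pools. With array medians set equal, Olfr782, Olfr804 and Olfr805 did not pass there, and each of the 3 was also lost without other single arrays. Olfr780 was within 1 SD of the negative controls or below them in both GFP+ groups, the SD being its own over 4 arrays. Olfr782 was so in both GFP+ groups and in the odor GFP- group.

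A further 9 receptors passed as lower in the odor pools and not in the vehicle pools: Olfr768, Olfr771, Olfr775, Olfr786, Olfr791, Olfr800, Olfr802, Olfr806 and Olfr820, with odor differences from -1.79 (Olfr768) to -0.62 (Olfr800). With the pool of mice as a block, Olfr768 (-0.85, adjusted p = 0.0425) and Olfr820 (-0.65, adjusted p = 0.0218) also passed as lower in the vehicle pools. The change between the sorts did not pass for any of the 9, as given below. Olfr768 read at the level of the negative controls in all 4 groups, and its difference is one between nonspecific levels. Olfr823 was the other receptor that passed as higher in the odor pools. It read 8.30, 8.37, 8.27 and 8.58 in odor GFP- and 9.31, 8.90, 8.90 and 9.45 in odor GFP+ cells. Its fractions were apart there, by 0.76 ± 0.17 (1.69-fold, adjusted p = 0.00359), and overlapped in the vehicle pools, where it read 8.25, 8.46, 8.62 and 8.13 in GFP- and 8.58, 8.42, 8.16 and 8.88 in GFP+ cells.

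The remaining 23 receptors passed in neither sort: Olfr765, Olfr767, Olfr772, Olfr773, Olfr774, Olfr776, Olfr781, Olfr784, Olfr787, Olfr790, Olfr792, Olfr796, Olfr798, Olfr799, Olfr803, Olfr808, Olfr810, Olfr813, Olfr814, Olfr818, Olfr819, Olfr821 and Olfr824. With the pool as a block, 3 of them passed: Olfr787 (0.66, adjusted p = 0.0257) and Olfr818 (0.52, adjusted p = 0.0161) as higher in the vehicle pools and Olfr784 (-0.49, adjusted p = 0.0484) as lower in the odor pools. Across the 54 genes the vehicle and odor differences correlated with Pearson's r = 0.961 and Spearman's rho = 0.928. This describes genes measured on different arrays with a common estimate of the spread, and genes are not independent replicates. The odor difference was below the vehicle difference for 46 of the 54. The same held for 664 of the 1026 other odorant receptors and 10808 of all 22206 tested probe sets.

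**Figure D3:**
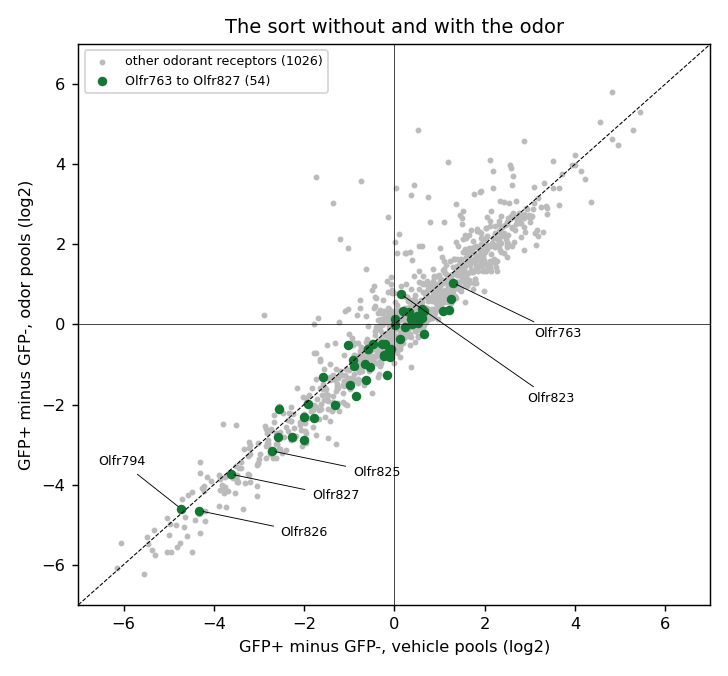
Difference of GFP+ from GFP- cells (log2) in the vehicle pools (horizontal axis) and the odor pools (vertical axis) for the 54 receptors of the cluster (green) and the 1026 other odorant receptors (grey); the dashed line marks equal differences. The cluster spans -4.73 to 1.30 in the vehicle pools and 46 of its genes lie below the line, while the grey points reach 5.43 and 5.80.

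By subfamily, the lower receptors came mainly from MOR114, MOR110, MOR113 and MOR210. MOR114, the largest with 13 genes (Olfr768 to Olfr773, Olfr777, Olfr780, Olfr781, Olfr791, Olfr794, Olfr799 and Olfr800), had 5 lower and 0 higher in the vehicle pools and 9 lower and 0 higher in the odor pools, with medians of -0.58 and -1.26. MOR113, with 5 genes, had 3 lower in each (Olfr815, Olfr816 and Olfr822), and its other 2, Olfr810 (0.61 ± 0.29 in the vehicle pools, adjusted p = 0.153) and Olfr814 (0.19 ± 0.55, adjusted p = 0.839), did not pass. MOR210 had 3 lower of 5 in each, with Olfr823 higher in the odor pools. The medians of these 3 subfamilies kept their sign under the 4 other scalings.

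MOR110, with 9 genes, split both ways in the vehicle pools. Olfr801 and Olfr811 were higher, and Olfr782, Olfr804, Olfr805 and Olfr812 were lower. In the odor pools 5 were lower and 0 higher, with Olfr806 added. Its median was -0.29 in the vehicle pools, which became 0.06 with array medians set equal, and -0.79 in the odor pools. MOR111, with 8 genes, had a median near 0 in the vehicle pools (-0.04, but 0.30 with array medians set equal and 0.08 after quantile normalization) with Olfr788 alone higher and 0 lower. Its odor median was -0.23 (0.09 with array medians set equal), with Olfr775, Olfr786 and Olfr802 lower.

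The smaller subfamilies were mixed. In MOR108, with 4 genes, Olfr809 was lower in both sorts and the other 3 did not pass; its medians were -0.57 and -0.58. The 2 members whose first 50 bases differ at 2 positions had differences of opposite sign in the vehicle pools. Olfr792 read 8.22, 7.98, 7.98 and 8.21 in GFP- and 6.95, 6.59, 7.93 and 6.78 in GFP+ cells, a difference of -1.03 ± 0.37 (adjusted p = 0.055). Olfr798 read 7.73, 8.35, 8.0 and 8.58 in GFP- and 8.24, 8.52, 9.10 and 9.25 in GFP+ cells, a difference of 0.62 ± 0.25 (adjusted p = 0.088). Neither passed, and the first was separated between fractions while the other overlapped. In MOR269, of 2 genes, Olfr763 was higher and Olfr796 differed by 0.01 ± 0.36 (adjusted p = 0.983). In MOR112, of 2 genes, neither Olfr790 nor Olfr808 passed, and the median of 0.31 in the vehicle pools became -0.18 with negative control medians set equal, and that of -0.09 in the odor pools became 0.24 with array medians set equal and 0.02 after quantile normalization.

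**Figure D4:**
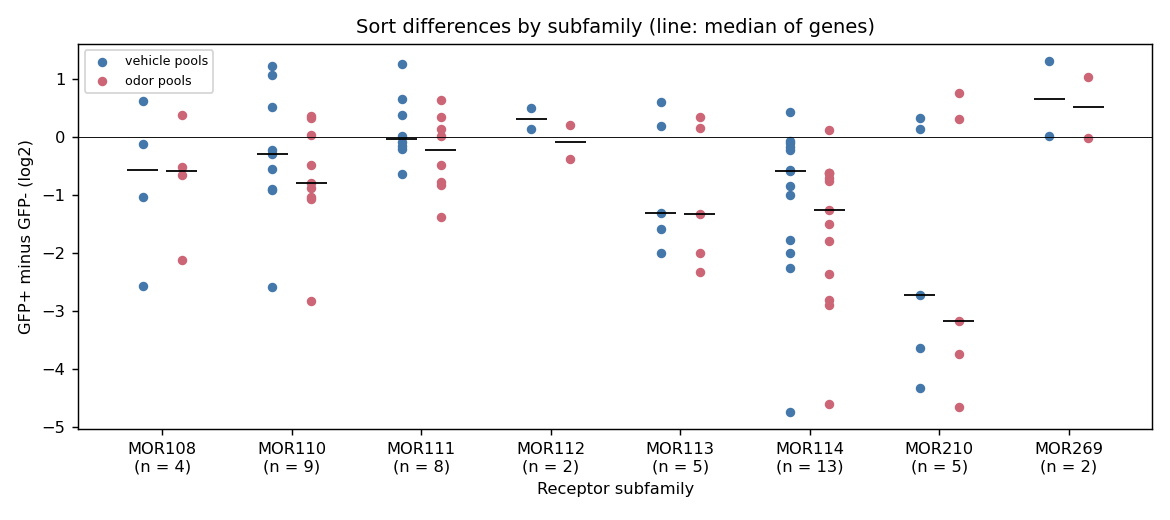
Difference of GFP+ from GFP- cells (log2) for each receptor of the 8 subfamilies with at least 2 genes, in the vehicle pools (blue) and odor pools (red); black lines are medians over genes. MOR210 divides into 3 genes below -2 and 2 above 0, and no gene of MOR114 lies above 0.43.

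The position of the genes was then set beside their differences. Over the 53 pairs of neighbours within the cluster, the median absolute difference between their vehicle sort differences was 0.87, against 1.09 over all 1431 pairs and 1.01 over the 170 pairs of a subfamily. In the odor pools these were 0.99, 1.09 and 1.08. The largest step was from Olfr794 to Olfr796, which differed by 4.74 and 4.59. These are descriptions of genes and carry no test.

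The question of the assay is which receptors gain GFP+ enrichment with the odor. None of the 54 passed in that comparison, the odor sort difference less the vehicle sort difference, against 14 (0.063%) of all tested probe sets, which were all receptors outside the cluster and all rose. In the limma test, 8 members had an unadjusted p under 0.05 (14.8%, against 4.65% of all probe sets), of which 7 were below 0. Gains lay below 0 for 46 of the 54, for 664 of the 1026 other receptors and for 10808 of all 22206 probe sets. The median gain of the cluster was -0.33, against -0.16 for the other receptors and 0.01 for all probe sets. Without the GFP+ array of vehicle replicate 2 it was -0.54 and again 0 passed, and it was -0.16 with receptor medians and -0.12 with negative control medians set equal. The 95% intervals bound the gains at this precision: the upper limit exceeded 1 for 8 of the 54 and exceeded 2 for none.

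Olfr791, of MOR114, had the lowest gain. Its signal was 11.34, 11.34, 10.99 and 11.72 in vehicle GFP-, and 11.21, 11.00, 11.42 and 11.09 in vehicle GFP+ cells. With the odor it was 11.61, 11.44, 11.43 and 11.76 in GFP- and 10.38, 9.96, 11.27 and 9.60 in GFP+ cells. Only the odor GFP+ arrays stood low, and among them replicate 3 lay at the level of the vehicle groups. The gain was -1.09 ± 0.37 (adjusted p = 0.898), and without odor GFP+ replicate 3 it was -1.41 (adjusted p = 0.0751).

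Olfr801, whose array values are given above, had a gain of -0.85 ± 0.29 (adjusted p = 0.908). The GFP+ minus GFP- difference was 1.49, 0.56, 1.01 and 1.80 in the vehicle pools and 0.18, 0.66, 0.40 and 0.24 in the odor pools, which overlapped. Olfr821, a lone MOR109 gene, read 11.45, 11.49, 10.97 and 11.41 in vehicle GFP- and 11.85, 11.29, 12.30 and 12.54 in vehicle GFP+ cells. With the odor it read 11.86, 11.62, 11.07 and 12.01 in GFP- and 11.07, 11.37, 11.76 and 11.38 in GFP+ cells. The fractions overlapped in both kinds of pool, and the gain was -0.91 ± 0.35 (adjusted p = 0.964).

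Olfr800 followed with -0.55 ± 0.22 (adjusted p = 0.964). The single rise among the 5 smallest p-values was that of Olfr823, with a gain of 0.61 ± 0.24 (95% interval 0.10 to 1.12, adjusted p = 0.965). The per-pool differences of the 2 stimuli did not overlap for 4 receptors (7.41%, against 3.31% of all probe sets): Olfr786, Olfr800, Olfr804 and Olfr806, all with a lower difference in the odor pools and none past the test. The 9 receptors lower in the odor sort alone had gains from -1.09 (Olfr791) to -0.34 (Olfr820), and those of Olfr788, Olfr801 and Olfr811, higher in the vehicle sort alone, were -0.62, -0.85 and -0.74. None passed, with adjusted p from 0.898 to 0.999 over these 12.

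**Figure D5:**
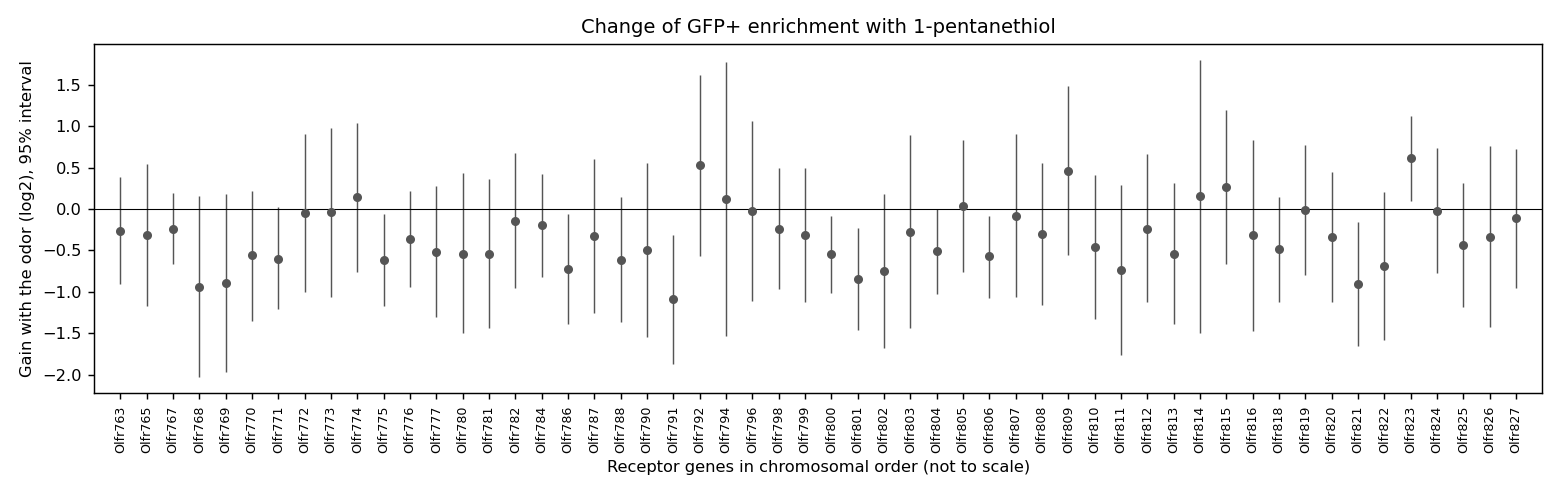
Gain of GFP+ enrichment with 1-pentanethiol (odor sort difference less vehicle sort difference, log2) with its 95% interval for the 54 receptors in chromosomal order. The points lie from -1.09 to 0.61, 46 of them below 0, and no upper limit reaches 2.

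The 2 odor comparisons that make up the gain use the same arrays and are given beside it. In GFP+ cells 0 of the 54 passed, against 0.0766% of all tested probe sets, with 7 at an unadjusted p under 0.05 in the limma test (13%, against 7.15%). The median change with the odor was -0.16 in the cluster and -0.04 in the other receptors. Olfr823 had the smallest p, with a difference of 0.63 ± 0.17 (adjusted p = 0.415) and all 4 odor GFP+ arrays above all vehicle GFP+ arrays. It was the single one of the 54 whose arrays did not overlap (1.85%, against 2.86% of all probe sets). Olfr791 followed at -0.88 ± 0.26 (adjusted p = 0.472), where without odor GFP+ replicate 3 the difference was -1.20 and passed (adjusted p = 0.0298).

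Olfr786, of MOR111, read 11.49, 10.69, 11.03 and 11.43 in vehicle GFP+ and 10.76, 10.43, 10.49 and 10.28 in odor GFP+ cells. Its groups overlapped between 10.69 and 10.76, and the difference was -0.67 ± 0.22 (adjusted p = 0.524). In GFP- cells it read 11.68, 10.95, 10.74 and 11.65 with vehicle and 11.42, 11.54, 10.98 and 11.30 with the odor, which overlapped. Olfr770 and Olfr821 were next, at -0.72 ± 0.26 (adjusted p = 0.579) and -0.60 ± 0.25 (adjusted p = 0.657).

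In GFP- cells 0 of 54 passed, against 0.0495% of all tested probe sets, with 5 at an unadjusted p under 0.05 in the limma test (9.26%, against 2.61%), all of them higher with the odor. The median was 0.17, against 0.10 for the other receptors. The arrays of 2 receptors, Olfr800 and Olfr822, did not overlap between the stimuli (3.7%, against 2.61% of all probe sets). Olfr800 read 8.19, 7.69, 7.67 and 8.01 in vehicle GFP- and 8.34, 8.40, 8.19 and 8.48 in odor GFP- cells, which touched without overlap at 8.19, and differed by 0.47 ± 0.15 (adjusted p = 1). Its GFP+ values were 7.99, 7.63, 7.82 and 7.84 with vehicle and 7.55, 8.11, 7.49 and 7.79 with the odor, which overlapped. Olfr763 differed by 0.58 ± 0.22 and Olfr768, at the level of the negative controls, by 0.97 ± 0.37. Olfr768 read 5.79, 5.88, 4.27 and 5.57 in vehicle GFP- and 7.03, 6.34, 5.81 and 6.21 in odor GFP- cells, and its GFP+ values were 3.82, 5.41, 4.30 and 4.57 with vehicle and 4.87, 4.90, 4.22 and 4.24 with the odor. Its GFP- groups overlapped, as did its GFP+ groups. Olfr801 and Olfr804 were at 0.50 ± 0.20 and 0.42 ± 0.17 without passing.

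Markers of other cell types moved with the sorts beside the receptors. All 7 neutrophil genes were lower in GFP+ cells (median -8.08 in the vehicle and -8.01 in the odor pools), with array means of 15.15 to 15.57 in vehicle GFP- and 6.76 to 7.65 in vehicle GFP+ cells. Of 6 genes of immature olfactory neurons 5 were lower in each sort (medians -2.24 and -2.01), with array means of 13.13 to 13.97 and 11.06 to 12.02 in the vehicle pools, and all 4 genes of dividing basal cells (-3.29 and -2.98) and all 5 of microvillar cells (-3.21 and -3.31) were lower as well. Of the 12 genes of mature neurons 0 were lower, and 1 was higher in the vehicle and 2 in the odor pools. The part of these differences in cell makeup in the values of the receptors was not tested.

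Another pair of lists was drawn up for receptor choice and trafficking and for transduction. Whether each listed gene, Ten1 among them, acts on receptors was not tested. Of the 20 genes of the first list 1 was lower in the vehicle pools, Lbr, a protein of the nuclear envelope. In the odor pools Lbr and the demethylase gene Kdm1a were lower and Ten1 was higher. The list medians were 0.07 and 0.02. Of 15 genes of olfactory transduction 3 were higher in the vehicle pools (the chloride channel gene Ano2, the kinase gene Camk4 and the phosphodiesterase gene Pde1c) and 5 in the odor pools, with 0 lower and medians of 0.18 and 0.17. None of either list passed in the gain.

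The RefSeq windows of 250 bases before and 50 after the annotated start were searched on both strands for 4 short motifs. TAATTA, letters at the core of homeodomain sites, was in 20.9% of the 43 windows of the cluster, 18.6% of those of 897 other receptors and 5.29% of all 32851 windows. TAATGA, a variant of it, was in 23.3%, 29% and 9.78%, and TATAAA in 55.8%, 40.6% and 13.6%. CCCNNGGG, the core of the palindrome bound by EBF factors, was in 0 of the 43, 3.23% of the other receptors and 13.7% of all windows. Since these gene models start at the start codon, the windows lie around it, and the shares describe letters and not binding.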

How the data were processed

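RNA of FACS-sorted cells was hybridized to Clariom S mouse arrays. The authors deposited log2 signals per probe set, made with Affymetrix Expression Console per the submitters' processing notes; its version, the summarization and the normalization are not given in the sources at hand. No further scaling or filter was applied. Of 28846 features, 22206 were tested, and 6640 control entries were left out.

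Group means of 16 arrays were fitted with limma 3.58.1 (R 4.3.3) and empirical Bayes moderation (16.66 degrees of freedom); tests were two-sided with Benjamini-Hochberg adjustment and no block. The script was tested on simulated data. Tables used Python 3.11.15 with pandas 2.3.3. The number of arrays limits the precision; pools were taken as the replicates. The GFP- and GFP+ arrays of a pool come from the same mice, so they are paired by design; their deviations from the group means correlated with r from 0.0119 to 0.224. Arrays of one number correlated between stimuli with r from 0.186 to 0.29 in GFP- and 0.0311 to 0.256 in GFP+ cells. Over the 54 receptors alone these were 0.0857 to 0.36 in GFP- and 0.227 to 0.563 in GFP+ cells, the opposite order. Arrays that share a number across stimuli come from different mice, and the labels do not call the number a pairing. Fits with either block, other scalings, a filter on low values and single arrays left out were alternatives.

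Members and lists were chosen with earlier results of these data known. Named were, per comparison, up to 10 highest and 10 lowest members that passed without overlap of the groups, or the 5 smallest p where fewer than 5 passed, the first 3 of each array by array, and every subfamily of at least 2 genes. Genes that passed in one sort and not the other, Olfr792, Olfr798 and the neighbours of named genes were added after their values were seen. Marker lists held genes of mature and immature neurons, basal, sustentacular and microvillar cells, neutrophils, macrophages, Bowman's glands and ensheathing glia. No protein sequences were used here.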

Additional observations from a re-analysis of the deposited data

Results flagged for a closer look

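The arrays of the 21 receptors named by the rule were examined in each of the 4 groups, 84 groups of 4 arrays, for an array set far from the other 3 (a gap of more than 0.829 of the group's range); chance alone marks about 1 group in 20, and 2 were marked. Olfr816 read 10.42 on the vehicle GFP+ array of replicate 3, above the 8.14 to 8.46 of the other 3 arrays. Olfr821 read 10.97 on the vehicle GFP- array of replicate 3, below the 11.41 to 11.49 of the other 3.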

How the results depend on the processing

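For the 40 differences of named receptors, 699 values under the alternatives kept direction and side of the threshold, 0 reversed, and 6 changed side. The receptors named for the sorts had been chosen as passing without overlap, so this count leaves out the weaker calls. Among the others that had passed, Olfr782, Olfr804, Olfr805 and Olfr811 lost the call in at least 1 alternative in the vehicle pools. In the odor pools Olfr771, Olfr786, Olfr800 and Olfr805 did. With negative control medians set equal, Olfr763 (adjusted p = 0.0811), Olfr788 (0.134) and Olfr801 (0.108) no longer passed as higher in the vehicle pools, nor Olfr763 (0.16) and Olfr823 (0.34) in the odor pools, so that 0 receptors were higher in either sort, against 4 and 2. With array medians set equal 15 and 7 were higher. The cause was not tested. Without odor GFP+ replicate 3, Olfr791 passed in GFP+ cells. With single arrays left out, 3 to 6 were higher and 14 to 18 lower in the vehicle pools, 2 to 3 higher and 25 to 26 lower in the odor pools, 0 to 1 passed in GFP+ cells with the odor, and 0 in the other 2 odor comparisons.

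With the pool of mice as a replicate block, 5 were higher and 19 lower in the vehicle pools and 2 and 27 in the odor pools. Of all tested probe sets, 9.54% were then higher and 11.8% lower in the vehicle pools, and 10.9% and 11.9% in the odor pools. Olfr811 was lost, and Olfr768, Olfr787, Olfr818, Olfr820 (vehicle) and Olfr784 (odor) were gained. With the replicate number as the block the counts were 6 and 18, and 3 and 26, the added receptor in the odor pools being Olfr788. The shares of all tested probe sets were 10.7% and 12.2%, and 12.4% and 12.3%. Neither block gave a call in the odor comparisons in which it could be fitted. In at least 1 group, 6 receptors had a mean that, less its own SD, was at or below the negative controls. Such signals limit Olfr768, Olfr780, Olfr782, Olfr792, Olfr794 and Olfr827. For Olfr794 the mean itself lay above the controls (8.03 against 6.55, SD 1.72, in vehicle GFP+ cells).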

Other observations

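Some genes of the remaining marker lists were lower in GFP+ cells as well, though not every list moved as a set. Of 5 genes of macrophages 3 were lower in GFP+ cells in each sort (medians -0.69 in the vehicle and -1.07 in the odor pools), of 5 genes of sustentacular (supporting) cells 1 and 3 were lower (-0.68 and -0.91), of 4 genes of Bowman's glands 1 was lower in each (0.27 and 0.06), and of 3 genes of ensheathing glia 0 and 1 were lower (0.22 and 0.40).

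The deviations of the receptors from their own means over the vehicle GFP- arrays showed how evenly the arrays carried the lower level. The median over the cluster was -0.08, -0.67, -0.31 and -0.06 on the vehicle GFP+ arrays of replicates 1 to 4 and -0.38, -0.47, -0.67 and -0.46 on the odor GFP+ arrays. For the other receptors the medians were 0.51, -0.04, 0.45 and 0.43 on the former and 0.45, 0.44, 0.23 and 0.40 on the latter. The vehicle GFP+ array of replicate 2, whose negative controls stood high, was the lowest of its group in both sets.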
